A study of Mus musculus with 36 samples.

Results

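The Hox genes of the mouse were followed along the intestine. They were taken as every gene on the arrays whose annotated symbol starts with Hoxa, Hoxb, Hoxc or Hoxd and a number, and 36 of the 15964 genes measured met this rule. Of these, 33 were coding genes, out of 39 coding Hox genes in the RefSeq annotation, and 3 were transcripts from the opposite strand (Hoxa11os, Hoxb5os and Hoxd3os1). The groups were colon, ileum, jejunum and duodenum of male mice of the stock Hsd:ICR(CD-1), 8 weeks old and kept on standard chow, with no treatment and no engineered allele in any group. Each of the 4 segments was represented by 3 pools of 10 mice, and total RNA of each pool was hybridised to array sets A, B and C, which makes 36 arrays. Pooling leaves out the spread between single mice, so the errors below are those between pools. Fewer cells of a type and less RNA per cell cannot be told apart in such tissue. On array set C, the title and the source name of one array disagree (duodenum 3 and jejunum), and the title was followed. Of the 1-per-gene probe sets used for the Hox genes, that array holds only the one for Hoxb5os.

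Hox genes encode homeodomain transcription factors that set position along the body axis of the embryo. They lie in clusters called Hoxa, Hoxb, Hoxc and Hoxd, and genes with the same number in different clusters are paralogues that descend from one ancestral gene. Within a cluster the numbers run from one end to the other, and in embryos the genes with high numbers are switched on later and closer to the tail, which is known as colinearity. In the gut tube Hox genes are known mainly from the mesoderm that forms muscle and connective tissue, and some are also active in epithelium and enteric neurons.

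Each gene is described by 1 probe set, the brightest of array set A where there was one, and otherwise that of set B, then C. This placed 32 genes on array set A, 3 on B (Hoxb2, Hoxc10 and Hoxd3os1) and 1 on C (Hoxb5os). Values are intensities on a linear scale, brought by the authors to the same overall level on every array. Because probes differ in brightness, the level of a gene was compared across segments and never with the level of another gene. A gene was counted as dim when no segment mean exceeded the median intensity of its array set, which was 66.3 on A, 100.4 on B and 94.4 on C. By this measure 17 Hox genes were above the median and 19 were dim. No detection calls were used. On array set A, 15 probe sets for Bacillus genes had a median of 7.4 and reached 77.8, and the labels do not say whether such transcripts were added. Differences are of log2(intensity + 16), an offset that makes the differences of dim genes smaller than on the linear scale. They were tested with limma over all probe sets, with Benjamini-Hochberg adjustment, and a gene was called at an adjusted p below 0.05.

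Hox genes were called between the colon and the small intestine, and none was called between segments of the small intestine. Few of all genes were called between those segments either (2.46% higher and 2.02% lower in ileum minus jejunum). The absence is therefore not read as particular to Hox genes. In colon minus the mean of ileum, jejunum and duodenum, 10 of the 36 Hox genes were called higher and 0 lower (limma), and 15 had an unadjusted p below 0.05. Over all genes the share called higher was 6.92% (9.84% on array set A) and the share called lower 4.96%. The 10 were Hoxa7, Hoxa10, Hoxa11, Hoxa11os, Hoxb5, Hoxb6, Hoxb9, Hoxb13, Hoxd9 and Hoxd11. The median difference over the 36 Hox genes was 0.35 on the log2 scale, beside 0.05 over all genes tested. Every colon pool lay above every small-intestinal pool for 9 Hox genes, beside 6.77% of all genes (9.34% on array set A), and the opposite held for 0 Hox genes, beside 4.18% of all genes. The segment with the highest mean was the colon for 21 Hox genes, the ileum for 9, the jejunum for 5 and the duodenum for 1. These counts include the 19 dim genes. No such share was taken over all genes, so they are not read as particular to Hox genes.

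**Figure D1:**
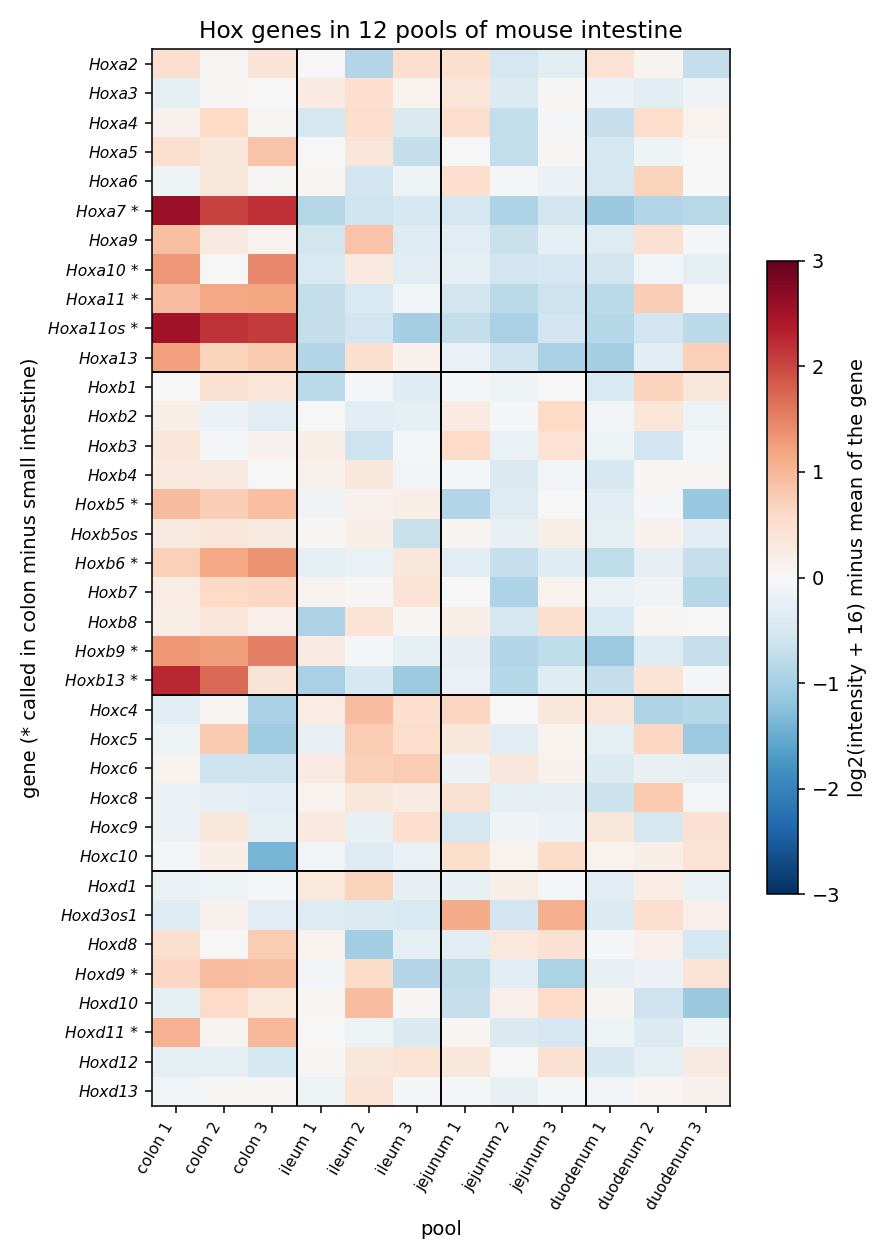
Each row is 1 of the 36 Hox genes, ordered by cluster and paralogue number, and each column is 1 pool, with colon pools at the left and duodenum pools at the right. Colour shows log2(intensity + 16) minus the mean of the gene over the 12 pools. The 10 genes called higher in colon carry a star, and Hoxa7 and Hoxa11os are high in all 3 colon pools.

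Hoxa7, a middle member of its cluster that takes part in patterning the trunk skeleton, showed a large difference. It had 270.0, 179.6 and 204.9 intensity units in the 3 colon pools, against 10.6, 15.9 and 17.3 in ileum, 17.2, 9.4 and 17.1 in jejunum and 6.4, 10.3 and 11.2 in duodenum. The lowest colon pool was above all 9 small-intestinal pools, whose values lay in the range of the Bacillus probe sets. The mean was 218.2 ± 46.6 in colon (SD, n = 3) and 12.8 over the small-intestinal pools. No linear ratio is given, since the small-intestinal level was not shown to be above background. The log2 difference was 3.02 ± 0.23 (SE) for colon minus small intestine (limma, adjusted p = 4.32e-07), and 2.92 ± 0.29 for colon minus ileum (adjusted p = 1.05e-05). Its call held under all 25 alternatives for the first comparison and all 26 for the second.

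Hoxa11os, a transcript running opposite to Hoxa11, had the same shape. Its intensity was 209.8, 160.5 and 151.9 in colon, against 8.0, 10.3 and 3.9 in ileum, 8.1, 4.2 and 10.4 in jejunum and 5.8, 10.4 and 7.0 in duodenum. No small-intestinal pool came near the colon pools. On the log2 scale the difference was 3.01 ± 0.22 for colon minus small intestine (limma, adjusted p = 1.67e-07) and 3.02 ± 0.26 for colon minus ileum (adjusted p = 3.00e-06). The probe set has the suffix s, which the maker gives to sets whose probes can match more than 1 transcript. The gene's other probe sets, on array sets A and C, had log2 differences of 0.93 ± 0.43 (adjusted p = 0.267) and 0.71 ± 0.24 (adjusted p = 0.106) and were not called. Hoxa11 itself, which shapes the forearm and the uterus, was dim, with 50.5 to 63.6 in colon, against 4.0 to 42.9 over the small-intestinal pools. Its colon and small-intestinal pools did not overlap, and all of them lay in the range of the Bacillus probe sets. It differed by a log2 of 1.45 ± 0.28 for colon minus small intestine (adjusted p = 0.00317) and 1.51 ± 0.34 for colon minus ileum (adjusted p = 0.0205). In the RefSeq promoter table the starts of this pair lie 567 bases apart on opposite strands.

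Of the 36 genes, 22 had an entry in the RefSeq promoter table of build GRCm38.p6, with 24 promoters in all, and the 250 bases before the start were searched on both strands. One form of the site bound by the Cdx proteins is TTTATG. Another form, which can overlap it, is TTTATT. The core site of retinoic acid receptors is AGGTCA. The promoter of Hoxa7 is shown as that of the coding gene with the largest difference, and those of Hoxa11 and Hoxa11os as those of an opposite pair that were both higher in colon. Hoxb8, chosen after its values were seen, is shown as a gene that was not called and also carries TTTATG. All are written 5′ to 3′ on the strand of the gene, with both Cdx forms and their reverse complements in capitals.
Hoxa7, chr6:52218574-52218823, minus strand: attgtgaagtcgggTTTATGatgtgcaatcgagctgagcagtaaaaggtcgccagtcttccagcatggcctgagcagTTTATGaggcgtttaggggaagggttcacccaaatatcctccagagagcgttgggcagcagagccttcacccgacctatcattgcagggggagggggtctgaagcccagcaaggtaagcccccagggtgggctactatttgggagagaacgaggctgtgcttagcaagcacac
Hoxa11, chr6:52245811-52246060, minus strand: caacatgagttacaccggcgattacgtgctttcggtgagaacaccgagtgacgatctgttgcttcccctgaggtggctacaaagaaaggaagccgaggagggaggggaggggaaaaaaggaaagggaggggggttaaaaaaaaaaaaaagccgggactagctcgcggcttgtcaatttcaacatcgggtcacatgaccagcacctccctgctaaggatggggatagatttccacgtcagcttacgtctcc
Hoxa11os, chr6:52244993-52245242, plus strand: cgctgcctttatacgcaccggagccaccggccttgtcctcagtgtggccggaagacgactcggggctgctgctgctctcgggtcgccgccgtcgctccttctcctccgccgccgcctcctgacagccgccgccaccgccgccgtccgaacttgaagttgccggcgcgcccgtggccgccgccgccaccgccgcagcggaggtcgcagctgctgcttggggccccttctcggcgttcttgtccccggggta
Hoxb8, chr11:96281655-96281904, plus strand: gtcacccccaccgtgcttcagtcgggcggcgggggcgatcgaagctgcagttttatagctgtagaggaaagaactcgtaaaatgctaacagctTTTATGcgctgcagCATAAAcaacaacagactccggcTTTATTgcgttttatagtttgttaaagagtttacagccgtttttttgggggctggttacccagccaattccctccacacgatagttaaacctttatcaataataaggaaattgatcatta
TTTATG was found 2 times before Hoxa7 and 2 times before Hoxb8, and neither Cdx form was found in the windows before Hoxa11 and Hoxa11os. A Cdx form was in 5 of the 24 Hox promoters (20.8%) and in 25.5% of the 32851 promoters of the table. AGGTCA was in 4 of the 24 (16.7%) and in 14.0% of all. Of the 6 called genes with an entry, 3 of the 8 promoters held a Cdx form and 0 held AGGTCA. The part of these sites in the differences was not tested.

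Another 3 middle and posterior genes of the Hoxb cluster were higher in colon. Hoxb5, which is active in the nerve cells of the gut, had 291.3, 253.4 and 282.0 in colon, against 132.8, 160.2 and 166.8 in ileum, 71.6, 107.5 and 143.5 in jejunum and 110.2, 137.6 and 57.4 in duodenum. All colon pools were above all others, and the small-intestinal segments overlapped. The log2 difference was 1.15 ± 0.23 for colon minus small intestine (limma, adjusted p = 0.00543) and 0.79 ± 0.29 for colon minus ileum, which was not called (adjusted p = 0.216).

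Hoxb6, its neighbour in the cluster, had 246.4, 338.4 and 390.3 in colon, against 115.3, 123.2 and 186.5 in ileum, 110.3, 82.4 and 108.3 in jejunum and 78.5, 118.3 and 82.3 in duodenum. The groups on either side of the ileo-caecal junction did not overlap. Its log2 difference was 1.43 ± 0.21 for colon minus small intestine (limma, adjusted p = 0.000312) and 1.12 ± 0.26 for colon minus ileum (adjusted p = 0.0232).

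Hoxb9, known from patterning of the ribs and mammary gland, had 81.1, 78.5 and 96.4 in colon, against 31.0, 22.4 and 16.9 in ileum, 17.0, 5.5 and 7.3 in jejunum and 2.4, 14.3 and 8.4 in duodenum. Every colon pool was above every other, and the ileum and jejunum overlapped, with a lowest ileum pool of 16.9 and a highest jejunum pool of 17.0. Here the log2 difference was 1.81 ± 0.24 for colon minus small intestine (limma, adjusted p = 0.000114) and 1.37 ± 0.29 for colon minus ileum (adjusted p = 0.0142). Mean intensity stepped down from colon to duodenum, with 85.3 ± 9.67 in colon, 23.4 ± 7.11 in ileum, 9.93 ± 6.19 in jejunum and 8.37 ± 5.95 in duodenum (SD, n = 3 each). Within the small intestine these means did not pass the test (ileum minus duodenum 0.71 ± 0.29, adjusted p = 0.354).

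Hoxb13, the gene at the tail end of the Hoxb cluster, is known from the prostate and the distal hindgut. It had 552.9, 366.3 and 138.8 in colon, against 44.1, 68.1 and 39.3 in ileum, 87.1, 49.9 and 75.5 in jejunum and 56.6, 140.4 and 96.9 in duodenum. The colon pools varied widely, and the lowest of them was just below duodenum pool 2. The log2 difference was 1.93 ± 0.34 for colon minus small intestine (limma, adjusted p = 0.00181) and 2.30 ± 0.42 for colon minus ileum (adjusted p = 0.00453). A second probe set, on array set C, had 548.7, 622.2 and 338.0 in colon, against 15.4 to 138.4 in the small-intestinal pools. That array set holds the array whose labels disagree. On it the groups did not overlap, and the log2 difference was 3.08 ± 0.41 (adjusted p = 0.000221). Colon pool 3 was the lowest of the colon pools on both probe sets of Hoxb13 and the highest of them for Hoxb6 and Hoxb9. Of the 4 urogenital genes measured, limma called 0 in colon minus small intestine, and their transcripts had means of 4.33 (Pbsn), 6.20 (Svs2), 159.1 (Upk1b) and 249.5 (Upk3a) in colon.

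In the Hoxd cluster, Hoxd9 and Hoxd11 were called. Hoxd9, a gene of the limb and lower trunk, had 132.1, 165.9 and 164.2 in colon, against 74.9, 123.8 and 36.5 in ileum, 40.2, 59.5 and 33.8 in jejunum and 66.1, 69.6 and 112.2 in duodenum. The lowest colon pool was close to ileum pool 2 but above it. The log2 difference was 1.09 ± 0.29 for colon minus small intestine (limma, adjusted p = 0.0284) and 0.95 ± 0.35 for colon minus ileum (adjusted p = 0.222). A second probe set, on array set B, was also called, at 1.29 ± 0.30 (adjusted p = 0.0127). With each array centred on its median, and with quantile normalization, the call of the probe set used was lost, as it was without colon pool 1, 2 or 3.

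**Figure D2:**
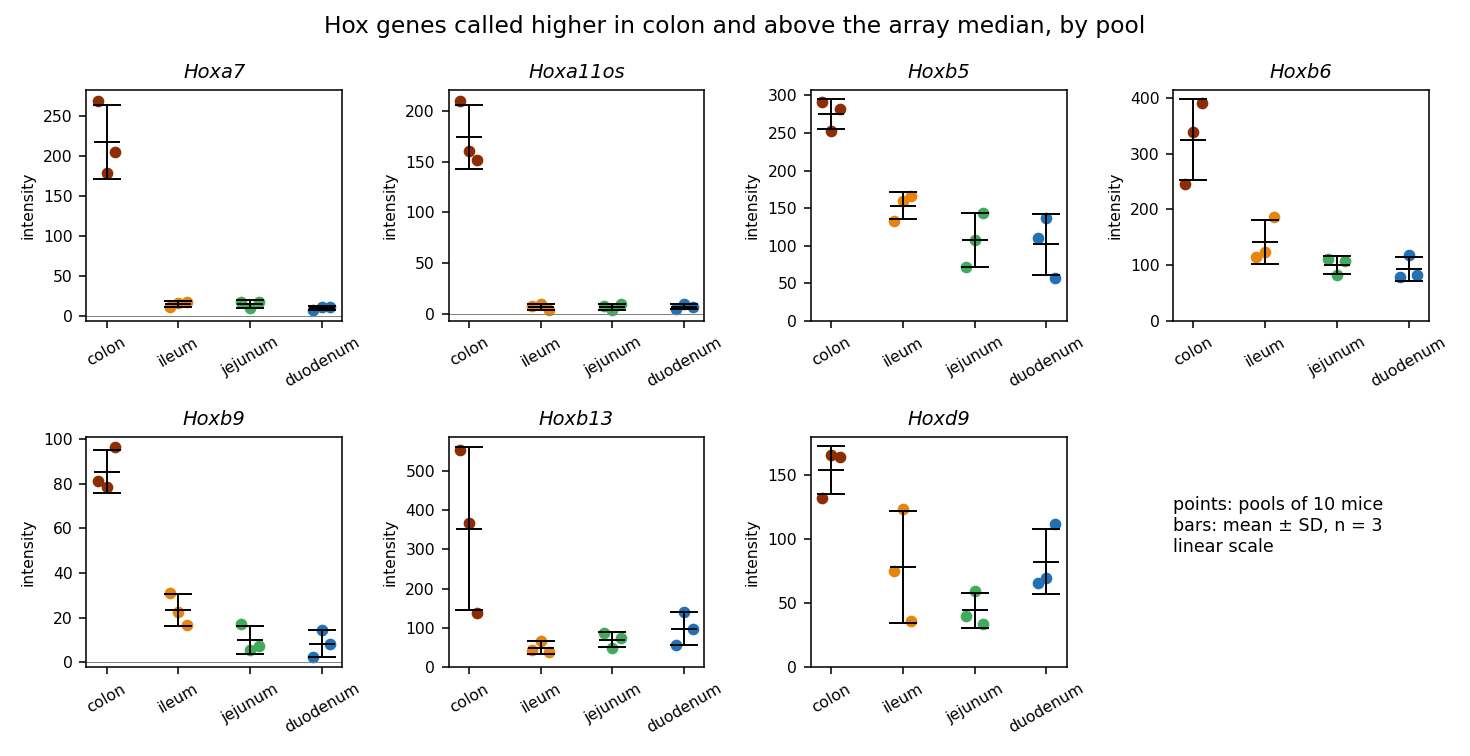
Points are the intensities of single pools on a linear axis, with the mean and SD of the 3 pools of each segment. The 7 genes are those called higher in colon whose brightest segment mean exceeds the median of the array set. Colon pools lie above all other pools except for Hoxb13, whose lowest colon pool of 138.8 is just below a duodenum pool of 140.4.

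The other 2 called genes were dim. Hoxa10, which acts in the uterus and the lower spine, had 8.5 to 51.0 in colon, against 0.6 to 14.0 in the small-intestinal pools, with colon pool 2 inside the small-intestinal range. Its log2 difference was 1.22 ± 0.26 (limma, adjusted p = 0.00843). Hoxd11, a partner of Hoxa11 in the forearm and kidney, had 17.2 to 48.3 in colon, against 6.2 to 16.3 in the small-intestinal pools. Its log2 difference was 0.95 ± 0.23 (adjusted p = 0.0189). Both calls were lost without colon pool 1 or without colon pool 3. The colon values of both genes lay in the range of the Bacillus probe sets of array set A, which reached 77.8.

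The genes were next grouped by their place in the cluster, for the difference between colon and small intestine. Among the anterior paralogues 1 to 3, 0 of 6 genes were called (limma), 0 had an unadjusted p below 0.05, and the median log2 difference was 0.04. These counts hold for the probe sets used: the second set of Hoxa3, on array set B, was called at 1.82 ± 0.47 (limma, adjusted p = 0.0225). Paralogues 4 to 8 had 3 of 14 genes called higher and a median of 0.33, and paralogues 9 to 13 had 6 of 13 called higher and a median of 0.95. Over all genes the median was 0.05, and over genes of array set A it was 0.09. The share of all genes called higher was 6.92% (9.84% on array set A), and 0 of 6 is near it. The medians of the classes were not tested against each other. Across the coding genes the rank correlation of paralogue number with the log2 difference was 0.30 over all 33 genes, 0.68 over the 10 of Hoxa, 0.73 over the 10 of Hoxb, -0.03 over the 6 of Hoxc and -0.21 over the 7 of Hoxd. Genes of a cluster share the same 12 pools, so these coefficients are descriptions only.

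By cluster, 3 of 10 Hoxa genes, 4 of 10 Hoxb genes, 0 of 6 Hoxc genes and 2 of 7 Hoxd genes were called higher in colon than in the small intestine. Over all genes this share was 6.92% (9.84% on array set A), and 0 of 6 is near it. The median log2 difference was 0.66 in Hoxa, 0.51 in Hoxb, -0.42 in Hoxc and 0.26 in Hoxd. In Hoxc, all 6 genes measured had negative differences, from -0.56 to -0.04, and 1 had an unadjusted p below 0.05. Only 1 of the 6, Hoxc10, had a segment mean above the median of its array set, and the other Hoxc genes were dim. The shared sign therefore rests mostly on dim genes. Against the ileum alone the 6 differences ran from -0.96 to -0.20, and again 0 were called, with 2 at an unadjusted p below 0.05. The smallest adjusted p in that cluster was that of Hoxc6, a gene of the thoracic trunk, named here after its values were seen. Hoxc6 was dim, with 16.8, 3.7 and 3.9 in colon, against 20.1, 34.4 and 35.8 in ileum, 11.0, 22.6 and 17.3 in jejunum and 7.1, 10.0 and 9.6 in duodenum. The colon and ileum pools did not overlap, and the log2 difference for colon minus ileum was -0.96 ± 0.26 (adjusted p = 0.0668). Without colon pool 1 Hoxc6 was called lower in colon than in ileum. Hoxc11, Hoxc12 and Hoxc13, the tail end of the cluster, were not analysed here.

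**Figure D3:**
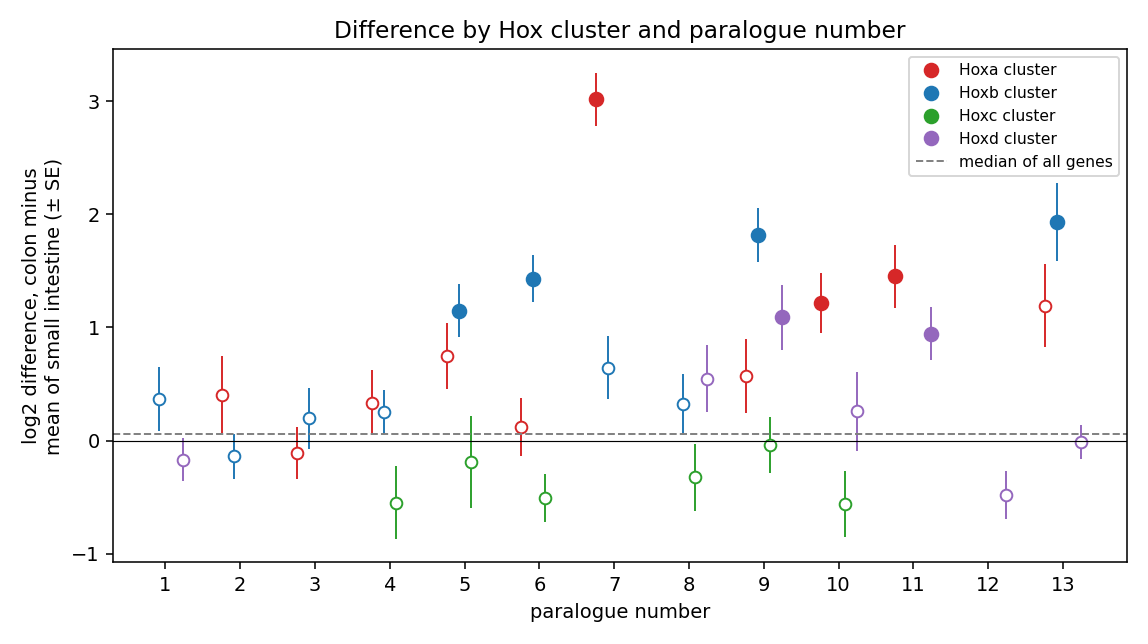
Each point is 1 of the 33 coding Hox genes, with its paralogue number on the horizontal axis and the log2 difference of colon minus the mean of the small intestine on the vertical axis, with SE bars. Filled points were called, and the dashed line is the median of all genes, 0.05. No gene numbered 1 to 3 is filled, beside 6.92% of all genes called higher. All 6 Hoxc points lie below 0, and all of them but Hoxc10 are of dim genes.

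At the far tail end of the clusters the genes differed among themselves. Hoxb13 was called. Hoxa13, which is needed for the hindgut and the digits, had 92.7, 56.7 and 63.6 in colon, against 7.0 to 59.4 in the small-intestinal pools. Colon pool 2 was inside the small-intestinal range, and the log2 difference of 1.19 ± 0.36 was not called (limma, adjusted p = 0.0618); it has the smallest adjusted p of the 26 genes not called and was named after its values were seen. Hoxd13, which acts in digits and the anal sphincter, stayed between 4.2 and 15.3 in all 12 pools, a range that holds the median of the Bacillus probe sets. Hoxd12 had 6.3 to 10.8 in colon, against 7.0 to 28.4 in the small-intestinal pools, with a log2 difference of -0.48 ± 0.21 (adjusted p = 0.233).

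The remaining genes showed no called difference between colon and small intestine. Over the 26 genes not called, 14 differences were positive and 12 negative, between -0.56 (Hoxc10) and 1.19 (Hoxa13). Several were bright in every segment on the probe set used. Hoxa4, a gene of the neck and thorax, had 639.0 to 951.2 in colon, against 367.9 to 909.6 in the small-intestinal pools. Its other sets on array set A were much less bright, with 41.4 to 129.7, 11.4 to 72.8 and 0.5 to 12.1 over the 12 pools. Hoxb2, a gene of the hindbrain, had 301.2 to 438.1 in colon, against 299.6 to 586.2 in the small-intestinal pools. Hoxb8, another trunk gene, had 199.7 to 231.8 in colon, against 85.6 to 259.4 in the small-intestinal pools. Its other set, also on array set A, had 1.8 to 27.8 over the 12 pools. As the sets of Hoxa4 and of Hoxb8 differ so widely, no level of expression is read from the brightness of these genes. For Hoxa4, Hoxb2 and Hoxb8 the segments overlapped.

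Across the ileo-caecal junction, 6 Hox genes were called higher in colon than in ileum and 0 lower (limma), with 15 at an unadjusted p below 0.05. The share called higher was 2.49% over all genes and 3.71% over array set A, and the share called lower 2.74%. The 6 were Hoxa7, Hoxa11, Hoxa11os, Hoxb6, Hoxb9 and Hoxb13, and the median difference over all 36 was 0.40. Without colon pool 3 the count was 3 (Hoxa7, Hoxa11os and Hoxb13). The calls of Hoxa11 and Hoxb6 were also lost without colon pool 2, ileum pool 1 or ileum pool 2, and that of Hoxb9 without ileum pool 3. The signal of 18S ribosomal RNA was low in ileum pools 1 and 3 and jejunum pools 2 and 3, at 200.6 to 1541 on array set A, and 5772 to 20058 in the other 8 samples, which include every colon pool. With this split as a block the count was 3 (Hoxa7, Hoxa11os and Hoxb13), and over the 8 samples of high 18S signal, with 1 ileum pool left, it was 2 (Hoxa7 and Hoxa11os). Colon minus small intestine gave 7 called genes in each of these fits.

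Within the small intestine no Hox gene passed the test. In ileum minus jejunum 0 of 36 were called (limma), with 1 at an unadjusted p below 0.05, beside 2.46% of all genes called higher and 2.02% lower. Ileum minus duodenum gave 0 calls with 3 at an unadjusted p below 0.05, beside 1.43% higher and 1.55% lower, and jejunum minus duodenum gave 0 and 0, beside 0.639% and 0.858%. As these shares of all genes are low, 0 calls are not read as particular to Hox genes. In a test of any difference among the 4 segments 8 Hox genes were called, beside 13.7% of all genes. The colon had the highest mean for all 8, and no such share was taken over all called genes.

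Where a gene had more than 1 probe set, the sets did not always give the same picture. Of 59 Hox probe sets with 1 gene symbol, 16 were called higher in colon than in the small intestine and 0 lower. Of all 36701 probe sets tested, 1628 were called higher and 1150 lower. Among 16 genes with more than 1 set, 7 had any set called, and for Hoxb13 and Hoxd9 every set was called. A further 4 genes, named here after their values were seen, were called only by a set that the rule did not choose. Hoxa9, which acts in blood cell formation and the lower trunk, is the clearest. Its set on array set B had 200.6, 223.9 and 184.1 in colon, against 7.0, 73.2 and 15.8 in ileum, 14.1, 4.7 and 8.1 in jejunum and 2.1, 18.3 and 11.3 in duodenum. These colon pools were above all others, and the log2 difference was 2.89 ± 0.38 (limma, adjusted p = 0.0001). The set on array set A had 92.6, 54.3 and 45.9 in colon, against 20.3 to 89.2 in the small-intestinal pools, and 0.57 ± 0.33 (adjusted p = 0.408). Hoxa3, whose set on array set B is given above, had -0.11 ± 0.23 on A. Hoxd10 had 1.43 ± 0.34 (adjusted p = 0.0178) on C and 0.26 ± 0.35 on A. For Hoxa6 a second set on A gave 1.11 ± 0.29 (adjusted p = 0.0246), and the set used gave 0.12 ± 0.26. Counting a gene as called by any of its probe sets gave 14 Hox genes. The 6.92% of all genes called higher holds for 1 probe set per gene, so it cannot stand beside this count.

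**Figure D4:**
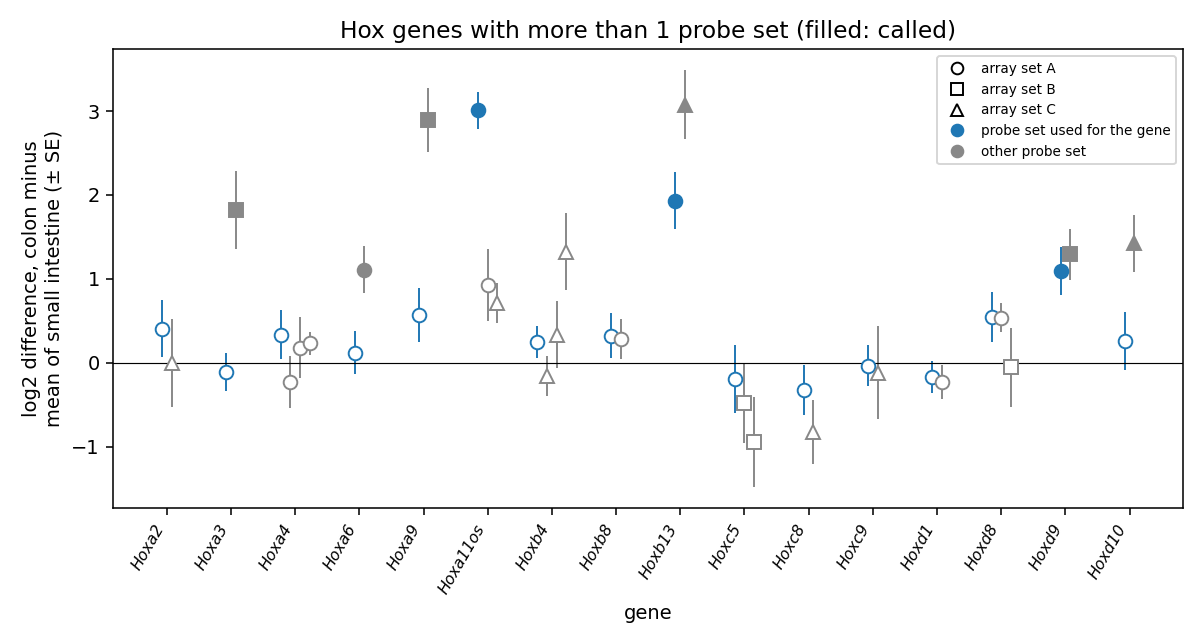
Points are the probe sets of the 16 Hox genes with more than 1, with the log2 difference of colon minus the mean of the small intestine and its SE. The marker shape gives the array set, blue marks the set used for the gene, and filled markers were called. Hoxa9 and Hoxa3 each have 1 filled set on array set B above an open set on A.

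Genes that work with or upstream of Hox genes were followed as lists, whose counts stand beside 6.92% of all genes called higher (9.84% on array set A) and 4.96% called lower in colon minus small intestine. Nothing particular to a list is read from a count of 1. Of 5 ParaHox genes, the sister family of the Hox clusters, 1 was called higher in colon than in the small intestine. This was Cdx1, a homeodomain gene of the intestinal epithelium, with 982.8, 896.9 and 1111 in colon, against 727.3, 529.9 and 668.6 in ileum, 368.9, 393.4 and 406.0 in jejunum and 292.2, 314.9 and 353.1 in duodenum. Its pools did not overlap between any of the segments. It was called in colon minus small intestine (1.18 ± 0.13, limma adjusted p = 2.18e-05), colon minus ileum (0.63 ± 0.16, adjusted p = 0.0448) and ileum minus jejunum (0.69 ± 0.16, adjusted p = 0.0327). Cdx1 was also called in ileum minus duodenum (0.96 ± 0.16, limma adjusted p = 0.00362). Pdx1, another ParaHox gene, was lower in jejunum than in duodenum (-2.13 ± 0.27, limma adjusted p = 0.000523). It was also lower in ileum than in duodenum (-2.33 ± 0.27, limma adjusted p = 0.000107). Of 8 TALE genes, homeodomain proteins that bind DNA together with Hox proteins, 1 was called. Pbx3 had 290.1, 284.8 and 219.2 in colon, against 65.4, 56.3 and 64.9 in ileum, 78.4, 69.4 and 42.2 in jejunum and 146.3, 95.5 and 119.7 in duodenum. The colon pools were above all others, by 1.58 ± 0.21 over the small intestine (adjusted p = 0.000155). The medians of the lists were 0.55 for ParaHox genes and 0.25 for TALE genes, beside 0.05 for all genes.

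Among 17 Polycomb and trithorax genes, which keep Hox genes silent or active, 0 were called higher and 1 lower (limma), and the median was 0.17. The lower one was Ash2l, a subunit of histone methyltransferases, with a mean of 72.3 ± 38.4 in colon, against 156.7 ± 14.4 in ileum, 173.7 ± 20.7 in jejunum and 122.9 ± 19.5 in duodenum (SD, n = 3 each). Of 11 genes of the retinoic acid pathway, 0 were called higher and 1 lower, with a median of 0.21. The lower one was Aldh1a3, which makes retinoic acid, with 18.5 ± 9.28 in colon, against 65.2 ± 12.4 in ileum, 60.2 ± 33.1 in jejunum and 125.7 ± 9.97 in duodenum. Its log2 difference was -1.48 ± 0.28 (adjusted p = 0.00335). Other members were called in other comparisons. Aldh1a1, with means of 4336 in colon, 1959 in ileum, 4051 in jejunum and 3634 in duodenum, was higher in colon than in ileum (1.14 ± 0.23, limma adjusted p = 0.011). It was lower in ileum than in jejunum (-1.06 ± 0.23, adjusted p = 0.0255). Rdh10 was lower in jejunum than in ileum and duodenum (adjusted p = 0.0283 and 0.0485).

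Among the cell type lists, that of smooth muscle was the only list with every gene called higher in colon. The labelled segments carried their own genes, with Car1 at 14650 in colon, Fabp6 at 10664 in ileum and Pdx1 at 97.0 in duodenum. All 8 smooth muscle genes were called higher in colon than in the small intestine (limma), with a median log2 difference of 2.12. Their summed intensity per pool was 27806 to 31834 in colon, against 10140 to 12809 in ileum, 5774 to 8984 in jejunum and 5698 to 6919 in duodenum. Of 6 fibroblast genes 3 were called higher, with a median of 0.98, and their sums were 3295 to 3771 in colon, against 2186 to 2824 in ileum, 1456 to 2505 in jejunum and 1922 to 2426 in duodenum. Of 8 genes of enteric neurons and glia 2 were called higher, Snap25 and Gfap, with sums of 553.9 to 718.8 in colon and 292.7 to 505.1 in the small-intestinal pools. Of 7 epithelial genes 0 were called higher and 1, Vil1, lower, with sums of 27994 to 33875 in colon and 28174 to 43624 in the small-intestinal pools. Of 5 leukocyte genes 1 was called higher and 2 lower. In the lists of kidney (2 genes), skeletal muscle (3) and urogenital genes (4) limma called 0 in this comparison, and 0 had an unadjusted p below 0.05. The part of the muscle, fibroblast and nerve markers in the Hox differences was not tested. For actin, the 3′ probe set was brighter than the 5′ probe set on array set A by a factor of 1.30 to 1.43 in colon, 1.14 to 1.20 in ileum, 1.28 to 1.55 in jejunum and 1.41 to 1.84 in duodenum, and its part was not tested either.

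**Figure D5:**
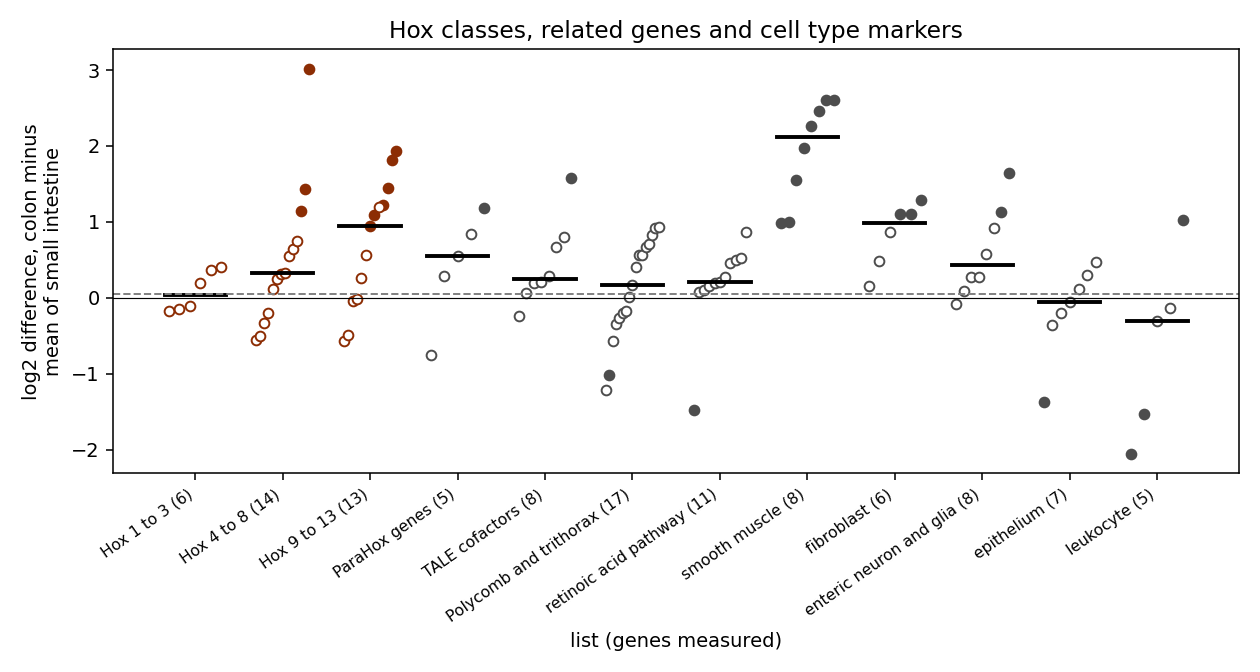
Points are genes, with the log2 difference of colon minus the mean of the small intestine, filled where called, and black bars are the medians of the lists. The dashed line is the median of all genes, 0.05. The bars of Hox paralogues 9 to 13, fibroblast genes and smooth muscle genes stand at 0.95, 0.98 and 2.12.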

How the data were processed

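The members, gene lists and tests were chosen with earlier results of these data known. The tables deposited by the authors hold linear intensity, judged from the values since the labels name no unit. The authors had scaled the arrays, as the mean without the highest and lowest 2% of each array was 200.05 to 200.2. For the scaling software and the genome build, the sources used here name none. The arrays of set A had median intensities of 48.7 to 75.2, those of set B 85.7 to 110.2 and those of set C 85.5 to 104.5. With 3 pools a segment, the number of arrays sets the precision. Then log2(intensity + 16) was fitted with limma 3.58.1 in R 4.3.3, each array set alone over its 12 arrays, with 1 mean per segment and an intensity trend. Two-sided p-values of 36701 probe sets (66 controls per set left out) were put through 1 Benjamini-Hochberg adjustment. Probe sets were named from the platform annotation, and of 63 Hox probe sets, 4 with several symbols were not used. Genes were described in every pool where called in any comparison with a brightest segment mean above the median of the array set. The neighbours of the Hox clusters were chosen after the data were seen. Data of 36701 probe sets were also simulated. For colon minus small intestine, limma called 27% of the probe sets shifted by log2 1 and 81.3% of those shifted by log2 2. There 18 of its 343 calls were false. For colon minus ileum it called 12.7% and 64%. Shifts within the small intestine were not simulated. Offsets, scaling, filters, blocks, other probe sets and left-out pools were tried as alternatives. Promoters were taken from RefSeq, build GRCm38.p6.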

Additional observations from a re-analysis of the deposited data

How the results depend on the processing

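Of 160 alternatives for the counts of called Hox genes 154 stayed within 1.5 times the main count, and of 402 for single called genes 362 kept the call, 40 lost it and 0 turned direction. Colon minus ileum fell to 3 with the 18S split as a block, to 2 in the 8 samples of high 18S and ran from 3 (without colon pool 3) to 7 with 1 pool left out. Any difference among segments gave 5 in those 8 samples and 5 (without colon pool 3) to 9 with 1 pool left out. Ileum minus jejunum gave 1, Hoxd3os1 lower in ileum (-1.52, adjusted p = 0.0272, limma), without jejunum pool 2, and 0 to 1 with 1 pool left out; colon minus small intestine ran from 7 to 11. The count of 7 in colon minus ileum came without colon pool 1 and held Hoxc6, which was lower in colon than in ileum. The causes were not tested. In colon minus small intestine the calls of Hoxa7, Hoxb5, Hoxb6, Hoxb9 and Hoxb13 held under every alternative. That of Hoxa11 held under the 24 alternatives that kept the gene, and the filter on low values removed it. Centring on the median moved the median of all genes from 0.05 to -0.08 in colon minus small intestine, turned the split of called probe sets from 1628 higher and 1150 lower to 1050 and 1381, and left 8 Hox genes called, all of them among the 10, with a lost call for Hoxd9 and Hoxd11. The replicate block gave 6 in colon minus ileum, 10 in colon minus small intestine and 7 for any difference. Deviations of pools with the same number correlated at -0.36 to 0.36, with 14 of 54 over 0.1; the 9 for ileum and colon were 0.0371 to 0.185. The labels give no shared mice, so the numbers were not treated as pairs. These correlations cannot settle whether pools with the same number share mice. Signal limits dim genes: 3 of the 10 calls were in dim genes, and a filter on low values left 7.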

Other observations

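Of the 10 coding genes nearest to each Hox cluster on either side, 66 of 80 were measured. In colon minus small intestine 6 of these neighbours were called higher and 5 lower by limma, with a median log2 difference of 0.17, beside 6.92% of all genes called higher and 4.96% lower. The Hox clusters gave 9 of 33 coding genes higher and 0 lower, with a median of 0.33. The neighbours were chosen after the data were seen, and the difference between the groups was not tested.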
